A study of Mus musculus with 6 samples.

Results

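The miR-183 cluster is a group of 3 microRNA (miRNA) hairpins, Mir183, Mir96 and Mir182, cut from one long precursor transcript, and its mature strands were followed here in mouse kidney. The members were the rows of the deposited count table named mmu-miR-96-5p, mmu-miR-182-5p, mmu-miR-182-3p, mmu-miR-183-5p and mmu-miR-183-3p, which are 5 of 1542 rows. Kidneys of 17-week-old female mice were profiled by small RNA sequencing in 6 libraries. Of these, 3 came from C57BL/6 mice, the wild-type controls, and 3 from MRL/lpr mice, labelled MRL/MpJ-Fas<lpr>/J, whose Fas gene bears the lpr mutation, whose genetic background is MRL, and which spontaneously develop lupus-like disease with nephritis. Background, mutation and disease differ together between the strains, and nothing in the labels ties a library to its own animal. The p-values therefore reflect spread among these libraries, which may be technical.

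A miRNA guides the silencing complex to messenger RNAs that pair with its seed, bases 2 to 8 from its 5′ end. The miR-183 cluster is best known from sensory cells: its miRNAs are abundant in photoreceptors and in hair cells of the inner ear, and seed mutations of miR-96 cause hearing loss in mice and humans. In helper T cells miR-182 is induced by interleukin-2 and represses Foxo1, a transcription factor that restrains cell division. The cluster has been described as raised in spleen cells of several lupus-prone mouse strains, MRL/lpr among them, and its level in their kidneys is the question the comparison addresses for these miRNAs.

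The mature sequences, from RefSeq on GRCm38.p6, are shown first because the seeds set which messages each miRNA can pair with. All 5 members matched an entry; the seed is in capitals.
mmu-miR-96-5p: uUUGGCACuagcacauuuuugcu
mmu-miR-182-5p: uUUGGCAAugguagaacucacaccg
mmu-miR-183-5p: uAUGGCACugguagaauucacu
mmu-miR-182-3p: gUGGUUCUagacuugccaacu
mmu-miR-183-3p: gUGAAUUAccgaagggccauaa

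miR-96-5p and miR-182-5p were identical at all 6 positions from base 2 to base 7 and differed at base 8, so their seeds matched at 6 of 7 bases. The seed of miR-183-5p matched that of miR-96-5p at 6 of 7 bases and that of miR-182-5p at 5 of 7. Past the seed the likeness was ordered differently. Compared base by base from the 5′ end without gaps, miR-182-5p and miR-183-5p were identical at 12 of 14 positions after base 8, against 5 of 15 for miR-96-5p and miR-182-5p and 6 of 14 for miR-96-5p and miR-183-5p. Among 1679 mature mouse miRNAs in the RefSeq table, miR-1271-5p was the 1 other miRNA with the seed of miR-96-5p, and none shared the seed of miR-182-5p or miR-183-5p. No row of the deposited counts was named miR-1271-5p, so its level could not be analysed here.

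The hairpins lie on chromosome 6, minus strand, of GRCm38, the build that the submitters' processing notes name. In the order of transcription, Mir183 (30169668 to 30169737) is followed after 116 bases by Mir96 (30169446 to 30169551) and after a further 3453 bases by Mir182 (30165918 to 30165992). No other GENCODE M21 gene overlaps the 3820 bases from Mir183 to Mir182, so the cluster is intergenic in that annotation. The long non-coding RNA gene Rncr4 lies 3155 bases away on the other strand, and the nearest protein-coding genes are Nrf1, 12459 bases beyond Mir182, and Ube2h, 41551 bases from Mir183. The hairpin sequences are shown with both mature arms in capitals, since the counts of the arms are compared further on.
Mir183: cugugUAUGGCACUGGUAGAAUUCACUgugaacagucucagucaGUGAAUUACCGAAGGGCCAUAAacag
Mir96: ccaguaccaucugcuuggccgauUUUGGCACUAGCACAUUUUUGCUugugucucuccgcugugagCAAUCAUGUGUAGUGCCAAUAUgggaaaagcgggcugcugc
Mir182: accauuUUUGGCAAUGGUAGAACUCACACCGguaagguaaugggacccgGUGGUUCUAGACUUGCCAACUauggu

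**Figure D1:**
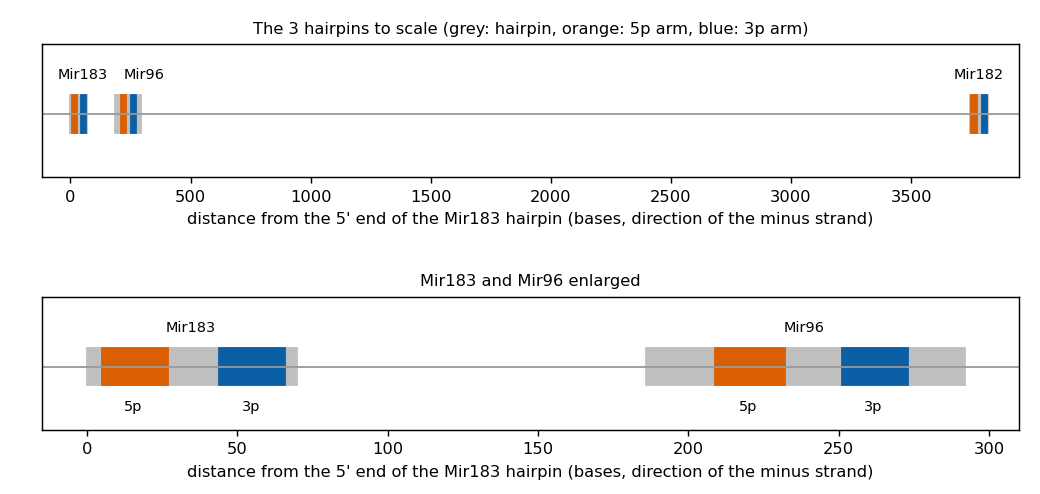
Map of the 3 hairpins (grey) with their 5p arms (orange) and 3p arms (blue), by distance in bases from the 5′ end of the Mir183 hairpin along the minus strand. Mir183 and Mir96 are 116 bases apart and Mir182 lies 3453 bases further on; the lower panel enlarges the first pair.

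Libraries held between 5259528 and 6773829 counts, and 451 of the 1542 mature sequences had enough counts to be tested between strains. The kidney tubule miRNAs miR-192-5p, miR-194-5p and miR-204-5p were abundant in every library, with group means of at least 5195 CPM (counts put on one library size by TMM scaling). C57BL/6 replicate 2 differed from its group: all 6 lymphocyte and pan-leukocyte miRNAs listed were higher there than in replicates 1 and 3, and 3 of the 6 were higher than in every MRL/lpr library too. Their sum was 27900 CPM in that library, while replicates 1 and 3 summed to 6003 and 5818 CPM and MRL/lpr to 9019 to 10750 CPM, and 25570 of the 27900 CPM were miR-146a-5p. Without miR-146a-5p the sum was 2323 CPM there, 992 and 1053 CPM in replicates 1 and 3, and 1705 to 2372 CPM in MRL/lpr. Its 10 epithelial and tubule miRNAs summed to 70150 CPM, the lowest of the 6 libraries, against 108400 to 120100 CPM in the others. The members are given with and without that library.

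The 5p strands of all 3 hairpins were detected at moderate levels, and the 3p strands were nearly absent. By mean CPM, miR-96-5p ranked 109th, miR-183-5p 122nd and miR-182-5p 129th of the 451 tested miRNAs. Each read is a whole mature strand, so counts do not grow with length, but ligation favours some RNA ends, and the order of different miRNAs is less certain than the level of 1 miRNA across libraries. miR-96-5p was counted above miR-183-5p in all 6 libraries, and above miR-182-5p in 5 of 6, the exception being MRL/lpr replicate 2. Counts of the 5p strands ran from 772 to 2178 per library, for which the counting error alone is 3.60% to 2.14%.

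None of the 3 tested members passed the test between strains, and the levels of the groups overlapped for each. The log2 fold changes of MRL/lpr over C57BL/6 were all close to 0, from -0.14 to -0.07, beside a median of -0.027 over all 451 miRNAs. Of all tested miRNAs, 6.21% passed the threshold (28 of 451, adjusted p under 0.05 by the quasi-likelihood test of edgeR with Benjamini-Hochberg adjustment), 4.21% as higher and 2% as lower in MRL/lpr, and 0 of the 3 members did. The number past the threshold moved with the library left out, from 5 of 472 tested without MRL/lpr replicate 3 to 54 of 470 without C57BL/6 replicate 2. It was 11 of 471 and 15 of 477 without C57BL/6 replicates 3 and 1, and 19 of 463 and 30 of 481 without MRL/lpr replicates 1 and 2. No member was among them in any of these runs. Nor did any member reach an unadjusted p under 0.05 in edgeR or DESeq2. Groups that did not overlap were seen for 28.8% of tested miRNAs and for 0 of the 3 members.

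miR-183-5p, the first miRNA of the transcript, was the steadiest of the 3 tested members. It had 193, 237 and 195 CPM in C57BL/6 replicates 1, 2 and 3, and 187, 186 and 196 CPM in MRL/lpr replicates 1, 2 and 3. The MRL/lpr libraries lay within a narrow band that overlapped the lower C57BL/6 values, and C57BL/6 replicate 2 was the highest of the 6. The C57BL/6 mean was 208 ± 24.7 CPM and the MRL/lpr mean 190 ± 5.71 CPM (SD, n = 3), a log2 fold change of -0.14 ± 0.19 SE (edgeR adjusted p = 0.716). The fitted ratio of MRL/lpr to C57BL/6 was 0.909, with a 95% interval from 0.675 to 1.23. Without C57BL/6 replicate 2 the log2 fold change was -0.015 and the ratio 0.990 (95% interval 0.742 to 1.32; edgeR adjusted p = 0.977). On the log2 scale its pooled SD within strains was 0.121, and 22 of the 451 tested miRNAs (4.88%) had a smaller one, where the median was 0.323. An SD from so few libraries is uncertain, and the 451 include miRNAs with few counts. The biological coefficient of variation fitted by edgeR, which draws on all tested miRNAs, was 30.1% for miR-183-5p, beside a median of 31.3%.

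miR-96-5p, the miRNA whose seed mutations impair hair cells, had 269, 350 and 215 CPM in C57BL/6 replicates 1, 2 and 3. In MRL/lpr replicates 1, 2 and 3 it had 287, 215 and 265 CPM. The MRL/lpr values filled the lower and middle part of the C57BL/6 range, and C57BL/6 replicate 2 was again the highest library. Means were 278 ± 68.1 and 255 ± 36.9 CPM (SD, n = 3), a log2 fold change of -0.12 ± 0.24 SE (edgeR adjusted p = 0.786). The ratio was 0.919 with a 95% interval from 0.638 to 1.32. Without C57BL/6 replicate 2 the sign turned, with a log2 fold change of 0.11, a ratio of 1.08 (95% interval 0.772 to 1.50) and an edgeR adjusted p of 0.776.

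miR-182-5p, the strand that represses Foxo1 in activated T cells, had 158, 221 and 199 CPM in C57BL/6 replicates 1, 2 and 3. In MRL/lpr replicates 1, 2 and 3 it had 151, 222 and 177 CPM. The libraries of both strains spanned nearly the same range. Means were 192 ± 31.9 and 183 ± 35.4 CPM (SD, n = 3), a log2 fold change of -0.07 ± 0.23 SE (edgeR adjusted p = 0.886). The ratio was 0.953 with a 95% interval from 0.670 to 1.36, and 53 of the 451 tested miRNAs had a smaller log2 fold change in size. Without C57BL/6 replicate 2 it was 0.049 (edgeR adjusted p = 0.934), and without MRL/lpr replicate 1 it was 0.070 (adjusted p = 0.912). A 2-fold difference in either direction lies outside the interval of each of the 3 members, while every ratio from 0.675 to 1.23 lies inside all of them.

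**Figure D2:**
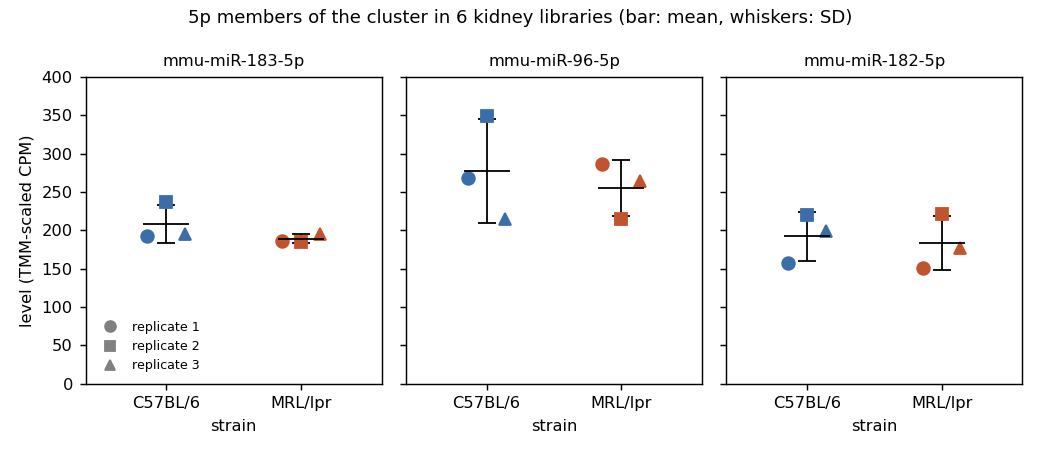
Level of each 5p member in TMM-scaled CPM (vertical axis) in the C57BL/6 and MRL/lpr libraries; symbols mark the replicate number, the long bar is the mean and the whiskers are the SD (n = 3). The groups overlap in each panel, and C57BL/6 replicate 2 is the highest C57BL/6 library for all 3 members, at 237, 350 and 221 CPM.

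**Figure D3:**
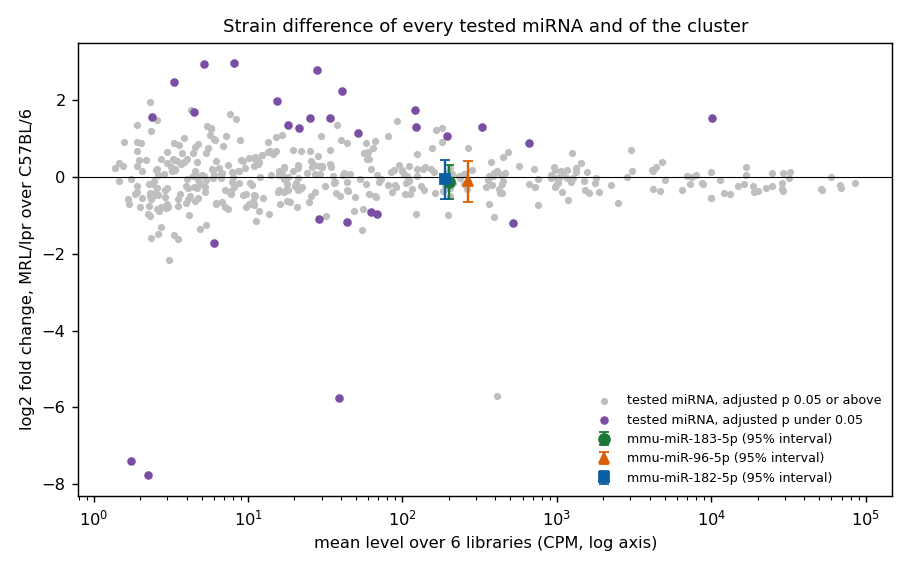
Log2 fold change of MRL/lpr over C57BL/6 (vertical axis) against mean CPM (log axis) for the 451 tested miRNAs, with the 28 past the threshold in purple and the 3 members with their 95% intervals. The members lie between -0.14 and -0.07, amid the grey points.

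Added up, the 5p strands made 620, 807 and 608 CPM in C57BL/6 replicates 1, 2 and 3 and 625, 622 and 638 CPM in MRL/lpr replicates 1, 2 and 3. Apart from C57BL/6 replicate 2, the 5 libraries of both strains lay between 608 and 638 CPM. That library was also highest in the leukocyte sum, most of it miR-146a-5p, but not in the pan-leukocyte miR-142a-3p, which had 88.8 CPM there and 111 to 151 CPM in MRL/lpr. The part of leukocytes in the cluster sum was not tested. In the 3 MRL/lpr libraries the leukocyte list summed to more CPM than in C57BL/6 replicates 1 and 3 while the cluster sum was 622 to 638 CPM, beside 620 and 608 CPM.

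The make-up of the sum was not the same in every library. miR-183-5p took a nearly constant share of the 5p counts, from 29.3% to 32.1%. Within the rest, miR-96-5p and miR-182-5p varied in opposite directions: miR-96-5p ranged from 34.5% to 45.9% and miR-182-5p from 24.2% to 35.6%, and the libraries with most of the one had least of the other. The extremes were both MRL/lpr libraries, replicate 1 with 45.9% miR-96-5p and replicate 2 with 34.5%. Between strains the shares were close, at 40.7% ± 4.67 and 40.6% ± 5.73 for miR-96-5p, 28.5% ± 3.74 and 29.2% ± 5.83 for miR-182-5p, and 30.9% ± 1.39 and 30.2% ± 0.491 for miR-183-5p (C57BL/6 first, SD, n = 3). Since shares add to a whole, a rise of one forces a fall elsewhere, and ratios of counts within a library are given next.

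**Figure D4:**
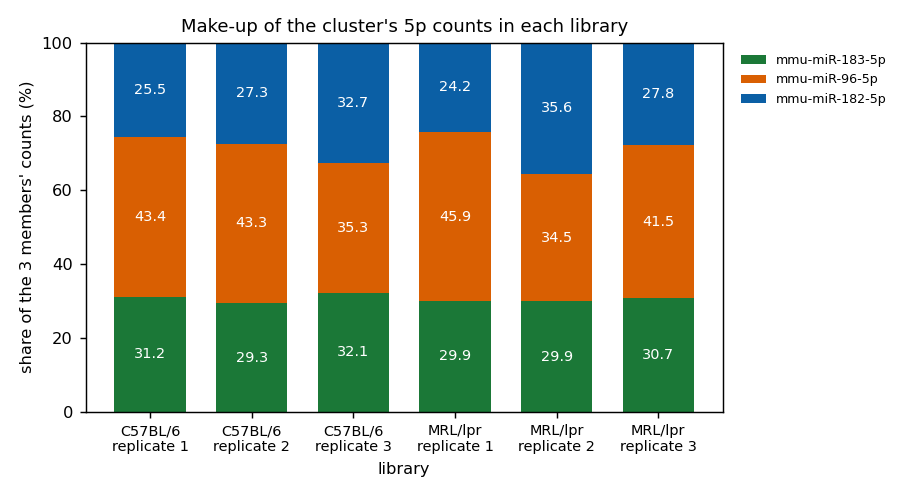
Share of miR-183-5p, miR-96-5p and miR-182-5p in their summed counts, in percent (vertical axis), for each of the 6 libraries. The share of miR-183-5p stays between 29.3% and 32.1%, while that of miR-182-5p runs from 24.2% in MRL/lpr replicate 1 to 35.6% in MRL/lpr replicate 2.

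The ratio of miR-182-5p to miR-96-5p was 0.588, 0.631 and 0.927 in C57BL/6 replicates 1, 2 and 3 and 0.528, 1.03 and 0.670 in MRL/lpr replicates 1, 2 and 3. One library in each strain, C57BL/6 replicate 3 and MRL/lpr replicate 2, stood well above the others of its strain. The counting error of this log2 ratio was at most 0.065, and its SD over the 6 libraries was 0.383, so the spread between libraries was larger than counting gives. Its mean differed between strains by 0.030 on the log2 scale (MRL/lpr minus C57BL/6; exact two-sided permutation p = 0.9, adjusted p = 0.9 over the 3 pairs of members, n = 3 per strain). The ratio of miR-183-5p to miR-96-5p ran from 0.652 to 0.909 and that of miR-182-5p to miR-183-5p from 0.810 to 1.19, with strain differences of -0.027 (exact permutation p = 0.8, adjusted p = 0.9) and 0.057 (exact permutation p = 0.9, adjusted p = 0.9). With 3 against 3 libraries the smallest p possible is 0.1, so these tests could not pass a threshold of 0.05.

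The spread of these ratios was set beside that of other miRNAs made from neighbouring hairpins. These were pairs on the same strand within 10000 bases, each miRNA found in no second hairpin of RefSeq or GENCODE M21 and with a mean of at least 100 CPM, and the comparison was chosen after the members' values were seen. Of 12 such pairs outside the cluster, 4 had a smaller SD of the log2 ratio than miR-96-5p and miR-183-5p (0.193), 5 a smaller one than miR-183-5p and miR-182-5p (0.211), and 9 a smaller one than miR-96-5p and miR-182-5p (0.383). The SDs of the 12 pairs had a median of 0.223. With a lower limit of 10 CPM there were 41 outside pairs, with a median SD of 0.334. Of these 41, 4, 7 and 24 had a smaller SD than the cluster pairs, in the same order. Among steadier pairs were miR-221-3p with miR-222-3p (0.125) and miR-200a-3p with miR-200b-3p (0.134), and among wider ones were miR-200c-3p with miR-141-3p (0.448) and let-7e-5p with miR-125a-5p (0.568). An SD over 6 libraries also holds any difference between strains. Pooled within strains, the SD of miR-96-5p and miR-182-5p was 0.427, above all 12 outside pairs of at least 100 CPM. Of those, miR-200c-3p with miR-141-3p had the highest, 0.410, and let-7e-5p with miR-125a-5p had 0.296. The other cluster pairs had 0.215 and 0.233. With the lower limit of 10 CPM some outside pairs lay above 0.427, among them miR-322-5p with miR-450b-3p (0.561) and miR-188-5p with miR-532-3p (0.883). Pairs share miRNAs and libraries, and they are given as a description with no test.

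**Figure D5:**
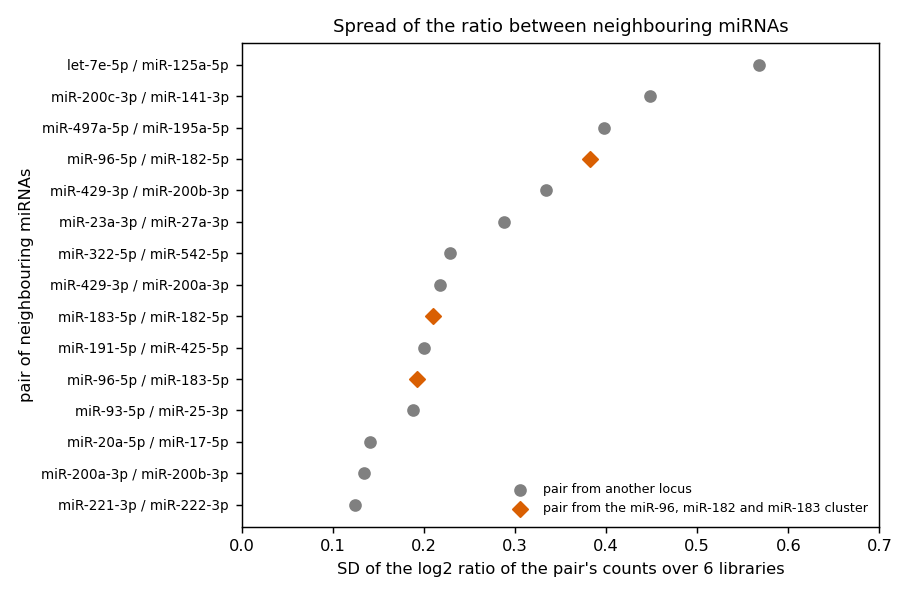
SD over 6 libraries of the log2 ratio of counts (horizontal axis) for pairs of neighbouring miRNAs with at least 100 CPM (vertical axis); diamonds are pairs within the cluster and circles are pairs from other loci. The pair miR-96-5p and miR-182-5p lies at 0.383, above the other cluster pairs at 0.193 and 0.211.

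The 3p strands, the arms opposite the abundant ones, were at the edge of detection and did not pass the filter, so they were not tested for a strain difference. miR-182-3p had 1, 1 and 4 counts in C57BL/6 replicates 1, 2 and 3 and 10, 2 and 3 counts in MRL/lpr replicates 1, 2 and 3. MRL/lpr replicate 1 held most of its MRL/lpr counts, and the groups overlapped. As a share of all counts from the Mir182 hairpin, the 3p strand averaged 0.171% ± 0.125 for C57BL/6 libraries and 0.460% ± 0.406 for MRL/lpr libraries (SD, n = 3). An exact two-sided permutation test gave p = 0.3. In MRL/lpr replicate 1 that share was 0.924%, with an exact Clopper-Pearson 95% interval from 0.444% to 1.69%, and in the other 5 libraries it was 0.0727% to 0.313%. Over all libraries it was 21 of 6727 counts, or 0.312% (95% interval 0.193% to 0.477%).

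miR-183-3p, the opposite strand of the Mir183 hairpin, had 1 count in MRL/lpr replicate 1 and 0 counts in the other 5 libraries. Of 7134 counts from that hairpin, 1 was of the 3p strand, or 0.0140% (95% interval 3.55e-04% to 0.0781%). In C57BL/6 it was 0 of 3670 counts, for which the 95% interval reaches up to 0.1005%, and a strain difference was not detectable at this depth. The third such strand, miR-96-3p, is not among the 5 members; it had 11 of the 9612 counts of its hairpin, or 0.114% (95% interval 0.0571% to 0.205%). Each of the 3 hairpins was represented almost wholly by its 5p strand in both strains. Intervals and limits cover counting error only, since PCR copies may be counted more than once.

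The miRNAs whose levels ran most like the mean of the 3 5p members over the 6 libraries, out of 275 with a mean of at least 10 CPM, were miR-195a-5p (Pearson r 0.969), miR-223-5p (0.945), miR-511-3p (0.936), miR-212-5p (0.932) and miR-146a-5p (0.932). The order rests on C57BL/6 replicate 2, where the mean of the members lay 0.31 above its average on the log2 scale. In the other 5 libraries that mean ran only from -0.085 to -0.024, and the members themselves had r of -0.23 (miR-96-5p), 0.50 (miR-182-5p) and 0.22 (miR-183-5p) with it, so likeness could not be judged without that library. In those 5 libraries r was 0.949 for miR-195a-5p, 0.543 for miR-223-5p and 0.592 for miR-511-3p. It was 0.0034 for miR-212-5p and 0.471 for miR-146a-5p. miR-223-5p and miR-511-3p mark granulocytes and macrophages, and miR-146a-5p is induced by NF-κB in leukocytes. The most alike, miR-195a-5p, and miR-212-5p are on neither the leukocyte nor the myeloid list used here. All 6 libraries share these values with the members, and r is a description here.

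Other miRNAs that earlier work found raised together with the cluster in spleen cells of lupus-prone mice were also looked up in these kidneys. Of the 4 listed, all tested, 1 was higher and 1 lower in MRL/lpr, where 4.21% of all tested miRNAs were higher and 2% lower, and with so few members the counts say little of the list. The median log2 fold change was -0.95, beside -0.027 over all tested miRNAs. miR-155-5p, induced in activated lymphocytes and macrophages, rose from 70.1 ± 28.1 to 173 ± 27.5 CPM (SD, n = 3; edgeR adjusted p = 0.0331). miR-31-5p fell from 82.2 ± 12.7 to 43.5 ± 5.79 CPM (edgeR adjusted p = 0.0451). Neither call held with every library left out in turn. miR-155-5p missed the threshold without C57BL/6 replicate 1 or 3 or MRL/lpr replicate 1 or 3 (edgeR adjusted p from 0.058 to 0.156). miR-31-5p missed it when any library other than C57BL/6 replicate 2 was left out (edgeR adjusted p from 0.0772 to 0.156). Their directions held in each of these runs. miR-127-3p (log2 fold change -0.98, edgeR adjusted p = 0.0503) and miR-379-5p (-1.39, adjusted p = 0.0662) are in the imprinted Dlk1-Dio3 cluster and did not pass.

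Lists tied to the cells and targets the cluster is known from are given by their counts, to be read beside the same 4.21% higher and 2% lower over all tested miRNAs. Single calls in lists this small do not set a list apart. Of 5 miRNAs of neuroendocrine, secretory and neural cells, 1 was lower (miR-375-3p, a miRNA of secretory epithelial cells, at 727 ± 83.0 and 318 ± 37.5 CPM, edgeR adjusted p = 0.00793) and none higher, with a median log2 fold change of 0.085. miR-375-3p missed the threshold without MRL/lpr replicate 3 (edgeR adjusted p = 0.0654). Of 7 tested miRNAs described as repressing Foxo1 or Foxo3, 1 was higher (miR-155-5p again) and none lower, with a median of -0.17. Of 6 leukocyte miRNAs 1 was higher, once more miR-155-5p, with a median of 0.72. Of 10 epithelial and tubule miRNAs 1 was higher, miR-204-5p, also with each library left out, with a median of 0.11 for the list. Of 3 myeloid miRNAs none passed, with a median of -0.70. Their sum was 1199 CPM in C57BL/6 replicate 2 and 249 and 255 CPM in replicates 1 and 3. In MRL/lpr it was 378 to 440 CPM, so the myeloid sum was lower in MRL/lpr only beside C57BL/6 replicate 2. Tissue RNA was measured in bulk, so fewer cells of a type and less RNA per cell cannot be told apart.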

How the data were processed

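Total kidney RNA was taken into small RNA libraries by adapter ligation, PCR and gel size selection and read on a nanoball instrument, per the labels' protocols. The deposited values are unnormalized counts per mature miRNA made by the authors; Bowtie2, DESeq2 and GRCm38.p6 are named, without roles, per the submitters' processing notes. Not given in the sources used here are the annotation and how reads with several matches were counted. Each column was tied to 1 sample through the strain, age and number shared with its title.

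Counts were filtered by filterByExpr (minimum count 10, minimum total 15), scaled by TMM and tested with the edgeR 4.0.16 robust quasi-likelihood test in R 4.3.3, with Benjamini-Hochberg adjustment over all 451 tested miRNAs. Standard errors and 95% intervals come from each coefficient with its F statistic. The planned limma 3.58.1 test of 5p over 3p CPM (pseudocount 1) had 105 hairpins with both arms tested, none from the cluster, so arms are given as shares of counts. Ratios between members used exact permutation (scipy 1.17.1). The edgeR and limma tests were tested on simulated data. The edgeR test called 52 of 107 simulated 2-fold changes (48.6%), 84 of 89 4-fold changes (94.4%) and 4 of 243 unchanged miRNAs (1.65%). The limma test called 20 of 20 simulated 4-fold changes, but those ratios were not drawn from sparse counts such as the 3p strands have. Sequences come from RefSeq and gene positions from GENCODE M21, both on GRCm38. DESeq2 1.42.0, limma-voom and other scalings and filters were alternatives. Members and lists were chosen with earlier results of these data known. Named miRNAs were the members, those sharing a seed, the 5 most alike in level, and listed miRNAs past the threshold. Some listed miRNAs that did not pass, miR-96-3p and neighbouring pairs were also named, as description.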

Additional observations from a re-analysis of the deposited data

How the results depend on the processing

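None of the cluster members passed the threshold under any of the 16 alternatives run for the edgeR test (4 other scalings, 2 other filters, DESeq2, limma-voom, no robust dispersion, the replicate block and each library left out). Scaling by library size alone shifted the median log2 fold change over all tested miRNAs by 0.15, and the log2 fold changes turned to 0.029 for miR-96-5p, 0.062 for miR-182-5p and 0.0096 for miR-183-5p. With single libraries left out they ran from -0.32 to 0.11 for miR-96-5p, from -0.26 to 0.070 for miR-182-5p and from -0.24 to -0.015 for miR-183-5p. The strain differences of the log2 ratios then ran from -0.23 to 0.25 for miR-182-5p to miR-96-5p, from -0.13 to 0.10 for miR-183-5p to miR-96-5p and from -0.10 to 0.18 for miR-182-5p to miR-183-5p. These values lie near 0, so their sign carries little. The limma arm test on the 320 hairpins with a count for both arms gave -0.45 for the log2 ratio of 5p to 3p of Mir182 (adjusted p = 0.698), and -0.75 to -0.078 over its 9 alternatives; its 3p counts are below the pseudocount of 1 CPM in all libraries but MRL/lpr replicate 1. Same-numbered libraries of the strains did not deviate together (r from -0.37 to 0.034). With 3 libraries per strain, these values cannot settle whether the numbers pair them. With the replicate block 0 members passed, with -0.10 for miR-96-5p. Depth limits the 3p strands, and 3 libraries per strain limit the intervals of the 5p strands.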
